A study of Mus musculus and Rattus norvegicus with 11 samples.

Results

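The cells described here are the mural cells of peripheral nerve vessels in NOD control mice: the 76 cells to which the authors' deposited annotation gives the name vSMC/PC in the 3 NOD control libraries, of 5347 annotated NOD control cells of 11 types. NOD control libraries 1, 2-1 and 2-2 held 7, 30 and 39 of them. Libraries 2-1 and 2-2 were summed as sample NOD control 2 wherever samples were compared, since both titles carry the number 2. Mural cells sit on the outside of blood vessels. Pericytes wrap capillaries, exchange platelet-derived growth factor, angiopoietin and Notch signals with endothelial cells, and help keep the blood-nerve barrier closed. Vascular smooth muscle cells ring arterioles and venules and set their width by contracting.

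The study profiled dissociated sciatic nerves and brachial plexus of perfused mice by droplet 3' single-cell RNA sequencing, after myelin removal and sorting of live cells. The groups used here are 3 libraries labelled ICAM-1-1/-NOD (called Icam1 knockout), 3 libraries of NOD control mice and 3 libraries of C57BL/6 mice. NOD mice are an inbred line known for spontaneous autoimmune disease. Per the series' design text, the NOD mice model chronic autoimmune neuritis and the C57BL/6 mice were undiseased. The labels give no age, sex or treatment, and do not say which alleles the control mice carry, how many animals a library holds or whether libraries came from separate animals, so p-values below measure only the spread between these samples, which may be technical. The other cell types are written as the deposited abbreviations, EC (EC1 in C57BL/6) being the endothelial type. In Icam1 knockout and NOD control libraries mural cells carry the single name vSMC/PC, while in C57BL/6 they are divided into PC (229 cells) and vSMC (271 cells).

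The 76 NOD control cells held 54312 unique molecular identifiers (UMIs, each counting 1 captured transcript), with 3982, 18983 and 31347 in libraries 1, 2-1 and 2-2 and a median of 606 per cell. Library 1 holds the fewest of these UMIs. The C57BL/6 mural cells, 500 in number, held 652243 UMIs, and the 14 Icam1 knockout ones 13956. No mural cell barcode was shared between libraries (0 in every pair). Mitochondrial transcripts made up 0.904% of mural UMIs in NOD control 1, 2.84% in 2-1 and 2.6% in 2-2, against 1.78%, 5.03% and 4.96% in C57BL/6 libraries 1, 3 and 4. Over all barcodes, Icam1 stood at 246, 259 and 254 CPM (UMIs of a gene scaled to a common total) in the libraries labelled Icam1 knockout, against 94.5, 44.1 and 54.96 CPM in NOD control 1, 2-1 and 2-2. A 3' count need not be lost with a disrupted allele, so this is no check of the genotype, and the group is called by its label. Within NOD control mural cells Icam1 had 0 UMIs.

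All 4 markers of mural cells had their highest level in these cells. Levels below are CPM of counts pooled over the 3 libraries, with 95% exact Poisson intervals that cover counting error only. Rgs5, a regulator of G protein signalling and the classical pericyte marker (chromosome 1, 169655501 to 169695813 in GRCm38, plus strand), reached 3811 CPM (3310 to 4367) from 207 UMIs, against 7.35 CPM in all other annotated NOD control cells. Acta2, smooth muscle actin (chromosome 19, 34241090 to 34255590, minus strand), reached 5837 CPM (5212 to 6516) from 317 UMIs, against 13.8 CPM elsewhere. Both levels lay above those of every other type, the next being 17.6 CPM in MC cells for Rgs5 and 208 CPM in EP cells for Acta2. Myh11, the smooth muscle myosin heavy chain (chromosome 16, 14194535 to 14291372, minus strand), had 33 UMIs in mural cells and 4 in the rest. Kcnj8, the pore subunit of the ATP-sensitive potassium channel of pericytes (chromosome 6, 142564837 to 142571614, minus strand), had 21 UMIs in mural cells, or 387 CPM, and its next highest type was fibro with 30.2 CPM.

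Because the deposited names come from the same transcripts, the comparison with other NOD control types is a description and has no test. Of 427 genes with at least 20 UMIs in the mural cells, 61 stood at least 4-fold above the pooled other annotated cells (14.3%). Of the same 427, 103 were highest in mural cells among the 11 types. The minimum of 20 UMIs was set in the mural cells, so genes high in them are more likely to be counted. Of 365 genes that would have had 20 UMIs at the level of the other cells, 50 were at least 4-fold lower (13.7%). The genes just inside the upper limit were Mt1, Oaz2 and Ppp1r12a at 4.06, 4.13 and 4.16-fold, and those just outside were Hspb1 at 3.98-fold and Vtn at 3.95-fold.

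The 12 genes with the largest ratios were smooth muscle, pericyte and signalling genes in mixture. Map3k7cl led with 39 UMIs in mural cells and 1 in all others, a ratio of 3226 (95% exact interval 546 to 130661). Pln, which encodes phospholamban, an inhibitor of the calcium pump of the sarcoplasmic reticulum, had 29 UMIs in mural cells and 3 elsewhere (ratio 800, 248 to 4102). Lmod1, an actin filament nucleator of smooth muscle, stood 724-fold higher in mural cells, and Myh11 683-fold. Higd1b, a pericyte gene of the mitochondrial Higd family, stood 689-fold higher, Rgs5 519-fold, its relative Rgs4 432-fold and Acta2 423-fold. Gucy1b1 and Gucy1a1, the subunits of the nitric oxide receptor guanylate cyclase, stood 279-fold and 276-fold higher, and the receptor Notch3 217-fold. Gm13861, for which no function is given here, had 22 UMIs in mural cells and 1 elsewhere.

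**Figure D1:**
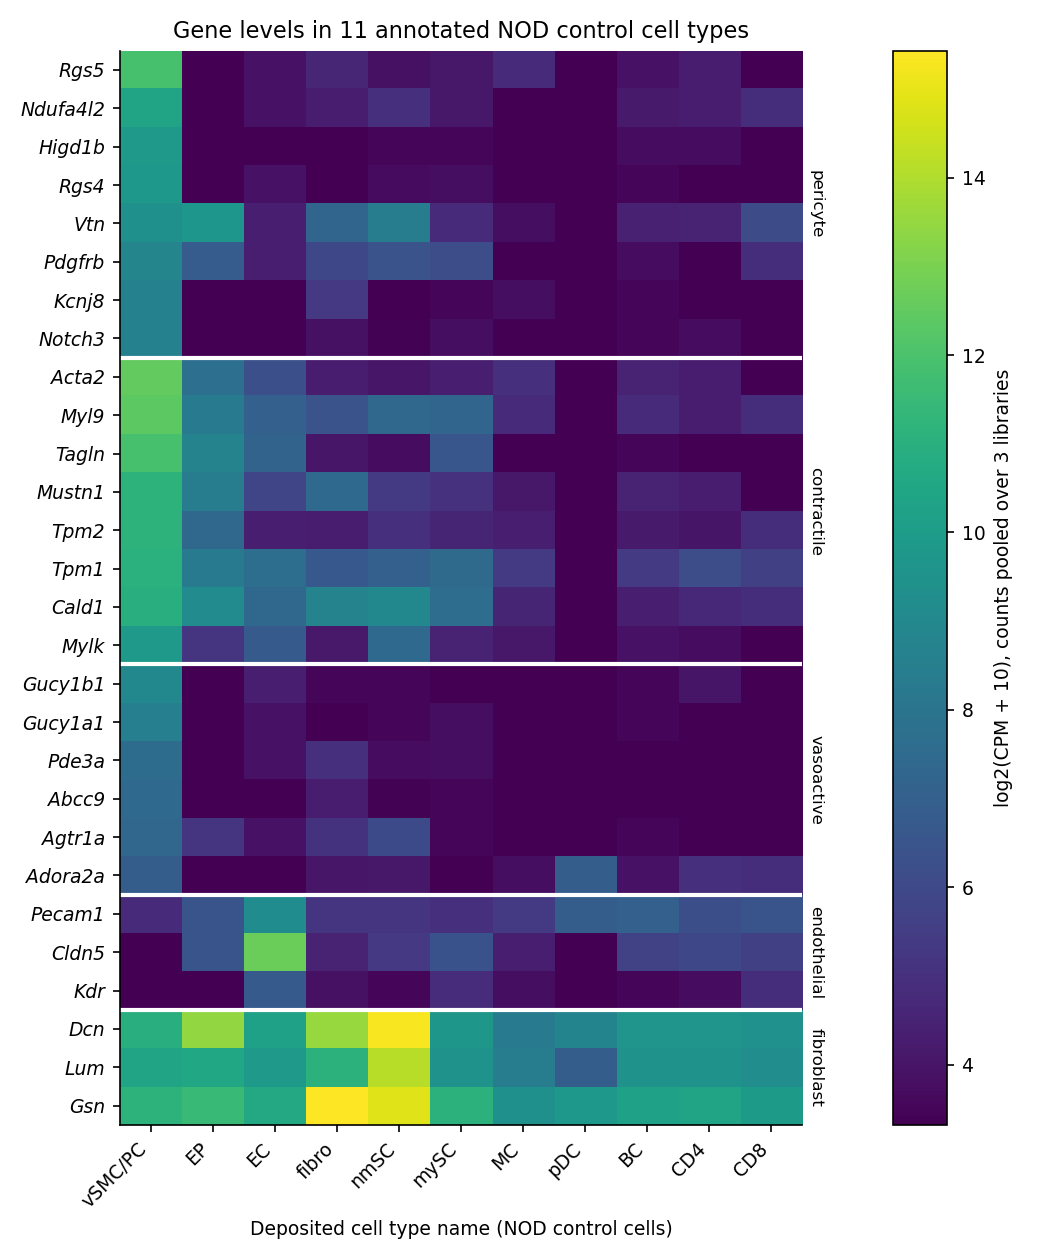
Levels of pericyte, contractile, vasoactive, endothelial and fibroblast genes (rows) in 11 annotated NOD control cell types (columns), as log2(CPM + 10) of counts pooled over 3 libraries. Most pericyte and contractile genes are brightest in the vSMC/PC column, except Vtn, which is highest in EP cells. In the vSMC/PC column Cldn5 is at 0 and Dcn stands at 1970 CPM.

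Of the 16 pericyte genes listed, 16 had at least 1 UMI in the mural cells and 8 had at least 20. Of those 8, 7 were both highest in mural cells and at least 4-fold higher than in the rest, with a median ratio of 161 against 1.35 over all 427 genes. Ndufa4l2, an alternative subunit of the respiratory chain that hypoxia induces, reached 1344 CPM in mural cells and at most 21.1 CPM in any other type. Pdgfrb, the receptor through which endothelial platelet-derived growth factor recruits pericytes, reached 442 CPM in mural cells and 104 CPM in EP cells, the next highest type. Vtn, encoding vitronectin, was the exception, with 663 CPM in mural cells and 804 CPM in EP cells. Named after its values were seen, Abcc9, the sulphonylurea receptor that pairs with Kcnj8 in its channel, had 9 UMIs in mural cells and 8 elsewhere. Cspg4, the NG2 proteoglycan by which pericytes are often stained, was named after its values were seen. It was found in 1 of 76 mural cells (1.32%, 95% Clopper-Pearson interval 0.0333% to 7.11%), against 130 of 2203 nmSC cells (5.90%), and its level was highest in EP cells, at 18.4 CPM in mural cells and 778 CPM in EP cells.

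All 20 contractile genes listed had a UMI in mural cells, 13 had at least 20, and each of these 13 was highest in mural cells and past 4-fold, with a median ratio of 139. Myl9, the regulatory light chain of smooth muscle myosin, reached 5248 CPM in mural cells and 311 CPM in EP cells. Tagln, the actin-binding protein transgelin, reached 3867 CPM in mural cells and 415 CPM in EP cells. EP was the next highest type for Acta2, Myl9, Tagln, Mustn1, Tpm2, Tpm1 and Cald1, the last of which stood at 1915 CPM in mural cells and 571 CPM in EP cells. The tropomyosin Tpm2 had 2265 CPM in mural cells, Tpm1 2099 CPM and Mustn1, a small nuclear protein of muscle, 2283 CPM. Des, the muscle intermediate filament desmin, had 405 CPM in mural cells and 7.94 CPM in fibro cells, and Mylk, the kinase that switches on myosin, 921 CPM in mural cells and 169 CPM in nmSC cells. Skeletal muscle transcripts were nearly missing: of 7 genes listed, 6 were at 0 in the mural cells and Tnnc2 had 1 UMI.

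Transcription of contractile genes is known to depend on serum response factor, which binds the CArG box, CC and GG around 6 bases that are A or T. RefSeq promoter entries (GRCm38.p6, 250 bases before to 50 after the start each entry uses) matched 17 of 20 contractile and 12 of 16 pericyte genes. The promoters of Acta2 and Myl9, the contractile genes with the most UMIs, are printed from 5′ to 3′, and capitals mark each CArG box, allowing 1 central base that is not A or T.
Acta2 (chr19:34255324-34255623, minus strand): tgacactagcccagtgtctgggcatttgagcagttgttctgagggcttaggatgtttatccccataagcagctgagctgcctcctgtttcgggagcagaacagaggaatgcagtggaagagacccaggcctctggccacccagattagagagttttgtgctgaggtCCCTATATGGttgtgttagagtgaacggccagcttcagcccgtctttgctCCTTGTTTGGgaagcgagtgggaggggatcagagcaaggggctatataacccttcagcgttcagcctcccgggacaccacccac
Myl9 (chr2:156775214-156775513, plus strand): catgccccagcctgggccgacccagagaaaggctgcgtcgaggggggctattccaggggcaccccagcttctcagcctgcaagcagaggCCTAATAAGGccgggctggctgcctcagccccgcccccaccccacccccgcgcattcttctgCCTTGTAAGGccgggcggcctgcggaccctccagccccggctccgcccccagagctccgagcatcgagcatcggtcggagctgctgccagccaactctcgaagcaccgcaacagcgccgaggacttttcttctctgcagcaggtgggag

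Acta2 held 2 such boxes, which begin 84 and 34 bases before the start used by its promoter entry. Myl9 held 2, at 161 and 99 bases, of which the first has no mismatch. For Acta2 the entry's start differs from that of the gene as placed above (34255590, minus strand), by which both boxes lie inside the gene. In form the box reads alike on both strands. Boxes with up to 1 mismatch were found in 3 of 21 contractile promoters (Acta2, Filip1l and Myl9) and in 0 of 17 pericyte promoters, against 9.98% of all 32851 promoters. Without a mismatch they were in 2 of 21 contractile promoters and in 1.63% of all. A match is a description of the letters and not of binding. For comparison, the promoter of Rgs5, the leading pericyte gene, held none in this window.
Rgs5 (chr1:169655251-169655550, plus strand): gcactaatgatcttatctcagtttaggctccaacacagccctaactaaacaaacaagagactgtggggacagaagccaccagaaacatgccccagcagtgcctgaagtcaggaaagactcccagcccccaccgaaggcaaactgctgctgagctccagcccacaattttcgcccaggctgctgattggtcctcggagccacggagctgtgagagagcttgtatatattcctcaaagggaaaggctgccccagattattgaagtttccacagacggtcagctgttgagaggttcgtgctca

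All 3 vasoactive genes with 20 UMIs passed 4-fold and were highest in mural cells, and the vasoactive list stood at 2302 CPM summed over its members in mural cells, against 41.8 to 182 CPM in the other 10 types. Pde3a, a phosphodiesterase that breaks down cyclic nucleotides, had 184 CPM in mural cells, and Agtr1a, the angiotensin receptor, 147 CPM from 8 UMIs. Adra1a, Ptgir, Kcna5 and Cacna1h had no UMI in the mural cells, where a count of 0 allows up to 55.2 CPM. In the Notch list, both members with 20 UMIs (2 of 2) passed 4-fold. Besides Notch3, at 387 CPM in mural cells, Hes1, a target gene of the pathway, reached 773 CPM in mural cells and 173 CPM in BC cells, the next highest. Heyl and Nrarp, also Notch targets, had 7 and 10 UMIs. The Notch ligand Jag1 stood higher in EP cells, at 92.1 CPM in mural cells and 234 CPM in EP cells.

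Of the growth factor list, only Pdgfa and Pdgfrb had 20 UMIs in mural cells, and both were past 4-fold. Pdgfa, a ligand of this receptor family, stood at 534 CPM in mural cells and at 167 CPM in mySC cells. The receptors Tek and Tie1, which endothelial cells carry, had no UMI. Of the basement membrane list, 0 of 3 members with 20 UMIs passed 4-fold: Sparc stood at 3038 CPM in mural cells and 7613 CPM in mySC cells, and Sparcl1 at 1694 CPM in mural cells and 2656 CPM in EC cells. Among transcription factors, 1 of 3 with 20 UMIs passed 4-fold. Nr2f2, a nuclear receptor of venous identity, had 1565 CPM in mural cells and 3061 CPM in EP cells, and Ebf1 1160 CPM in mural cells and 1411 CPM in BC cells. Tbx18, Foxs1, Foxf2, Foxd1, Myocd and Zic1 had no UMI. At 54312 UMIs in all, low transcription factor transcripts were not detectable and cannot be called absent.

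Isoforms of respiratory chain subunits and members of the mitochondrial Higd family differed in how restricted they were. Of the 7 listed with 20 UMIs, 2 passed 4-fold. Ndufa4l2, Higd1b and Cox4i2 were mural genes, the last with 16 UMIs, while Ndufa4 stood at 497 CPM in mural cells and 835 CPM in EC cells, and Cox4i1 at 1583 CPM in mural cells and 3268 CPM in EP cells. Immediate early genes, which tissue dissociation is known to induce, were not set apart in mural cells: 0 of 10 members with 20 UMIs passed 4-fold, with a median ratio of 1.13. Fos had 2430 CPM in mural cells and 4622 CPM in mySC cells.

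Genes for antigen presentation were below the pooled other cells, which include leukocytes. Of 7 members that could be called lower, 5 were at least 4-fold below them, beside 13.7% of all such genes. Summed over the list, the level was 2780 CPM in mural cells, against 2655 CPM in nmSC, 3605 CPM in mySC, 4047 CPM in EP and 4156 CPM in fibro cells, and 58543 CPM in BC and 70603 CPM in MC cells. The sum in mural cells was thus close to that in nmSC cells, and EC cells had 10756 CPM. B2m, the light chain of class I molecules, stood at 387 CPM in mural cells, against 1735 CPM in all others, with 753, 211 and 447 CPM in mural cells of libraries 1, 2-1 and 2-2. Class II genes are known for antigen-presenting cells, and Cd74 stood at 755 CPM in mural cells and 39534 CPM in MC cells. Of the chemokine list, Mif alone had 20 UMIs, at 387 CPM in mural cells and 566 CPM in CD4 cells, and 0 of 1 passed 4-fold. Il34, a ligand of the macrophage colony-stimulating factor receptor, had 239 CPM in mural cells and 91.6 CPM in nmSC cells from 13 mural UMIs. Of the adhesion list, 1 of 2 members with 20 UMIs passed 4-fold. Esam, a junction protein of endothelium and platelets, stood at 387 CPM in mural cells and 1352 CPM in EC cells. Itgb1, the integrin beta chain through which cells hold to the basement membrane, was highest in mural cells, at 460 CPM against 306 CPM in mySC cells, a 2.26-fold ratio to all other cells.

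Transcripts of other cell types were measured in the same cells. Of 10 endothelial genes, 5 were at 0 in mural cells, namely Cdh5, Cldn5, Kdr, Flt1 and Tie1. Cldn5 had a UMI in 0 of 76 mural cells, which allows a share of cells with a UMI of up to 3.95% at this depth, and in 254 of 273 EC cells. Perineurial genes summed to 7 UMIs and erythrocyte genes to 4. Fibroblast genes were more abundant, with 9445 CPM summed over 10 genes in mural cells, against 4089 CPM in BC cells, 5631 CPM in EC cells, 70553 CPM in fibro cells and 131928 CPM in nmSC cells. The type deposited as nmSC held 1002 CPM of the Schwann list, against 54513 CPM in mySC cells, and is used here by its deposited name. Dcn and Gsn, abundant fibroblast transcripts, stood at 1970 and 2246 CPM in mural cells and at 18326 and 18777 CPM in all other cells. In libraries 1, 2-1 and 2-2 the sum was 1507, 4109 and 13686 CPM. In library 2-2, 3 cells held more fibroblast than mural UMIs and together 301 of the 513 fibroblast UMIs, and without them the sum was 4237 CPM. Myeloid genes had 26 UMIs in library 1, all in 1 cell, and 1 and 13 UMIs in libraries 2-1 and 2-2. The part of these transcripts in the levels above was not tested. Without the 3 cells, 63 genes in place of 61 were past 4-fold.

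The libraries differed in Rgs5 but not alike in all pericyte genes. Rgs5 stood at 502, 3846 and 4211 CPM in libraries 1, 2-1 and 2-2. Library 1, with 2 Rgs5 UMIs, was thus far below the others and its interval (60.8 to 1814 CPM) did not reach theirs. Higd1b stood at 0, 1001 and 989 CPM, and Kcnj8 and Vtn had no UMI in library 1 either, but the intervals of these 0 counts (up to 926 CPM) overlapped those of the other libraries. Pdgfrb, at 1256, 316 and 415 CPM, and Ndufa4l2, at 1758, 1317 and 1308 CPM in libraries 1, 2-1 and 2-2, were highest in library 1, with intervals that overlapped. Acta2 stood at 6781, 6480 and 5328 CPM and Myl9 at 6278, 4846 and 5359 CPM, with intervals that overlapped. Tagln stood at 6529, 4741 and 2999 CPM, lowest in library 2-2, where its interval did not reach that of library 1. Summed over their lists, pericyte genes made up 5776, 10114 and 10495 CPM in libraries 1, 2-1 and 2-2, and contractile genes 38925, 29237 and 25904 CPM. Library 1 gave 7 cells only, so these are values of few cells.

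**Figure D2:**
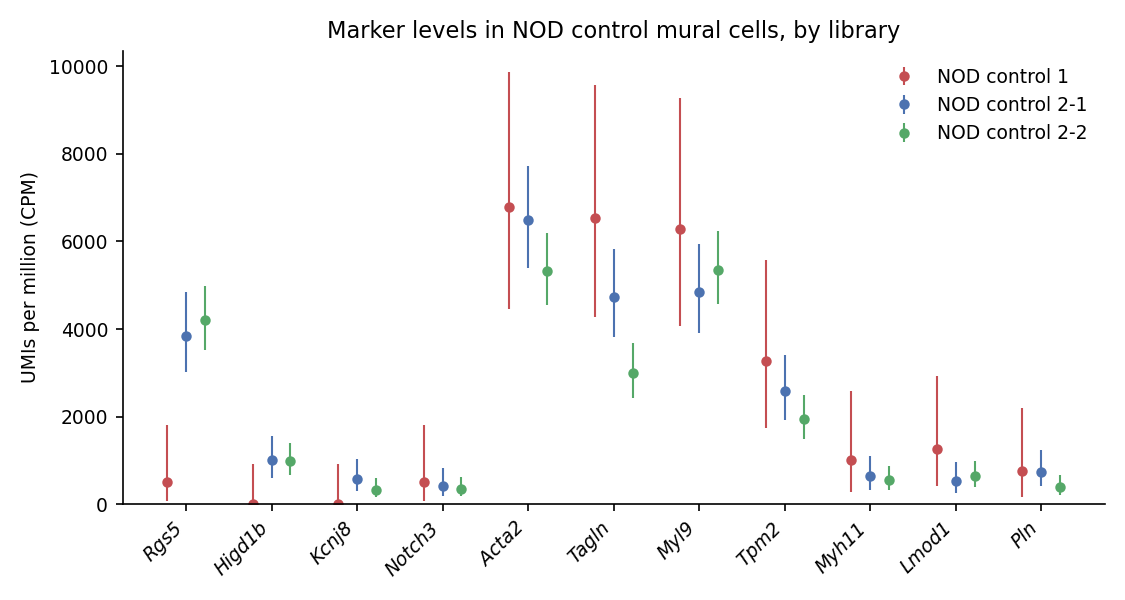
CPM of 4 pericyte and 7 contractile genes in NOD control mural cells, 1 point per library (1, 2-1 and 2-2), with 95% exact Poisson intervals as bars. Rgs5 in library 1 lies at 502 CPM, below 3846 and 4211 CPM in libraries 2-1 and 2-2, while Acta2 and Myl9 intervals overlap.

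Across the 11 types, the genes whose log2(CPM + 10) followed Rgs5 most closely were Des (r = 0.986), Notch3 (0.985), Map3k7cl (0.982), Pln (0.981) and Higd1b (0.979), out of 426 genes. These correlations are a description over 11 types that share libraries, and they rest on the mural type being high. Rgs5 and Acta2 were often not seen in the same cell. Rgs5 was seen in 44 of 76 mural cells (57.9%, 46.0% to 69.1%) and in 7 of 2203 nmSC cells (0.318%), at median depths of 606 and 718 UMIs. Acta2 was seen in 48 of 76 mural cells (63.2%, 51.3% to 73.9%) and in 8 of 273 EC cells (2.93%), whose median depth was 624 UMIs. Both were seen together in 24 mural cells, Rgs5 alone in 20, Acta2 alone in 24 and neither in 8. With each cell thinned to 400 UMIs, the shares of mural cells were 56.6% for Rgs5 and 59.2% for Acta2. Kcnj8 was seen in 16 mural cells and Myh11 in 20, and no cell held both (0 of 76), while 5 of 229 C57BL/6 PC cells and 3 of 271 C57BL/6 vSMC cells did. Acta2 and Tagln were together in 37 NOD control mural cells, and Rgs5 and Higd1b in 22, with Higd1b alone in 7. At these depths a missing UMI does not show that a transcript was absent.

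To place each cell, the 8 pericyte and 12 contractile genes of the lists that differed at least 4-fold between C57BL/6 PC and vSMC cells were counted, a rule chosen after the data were seen that uses C57BL/6 cells to pick the genes. The contractile share of these UMIs was at most 25% in 22 of the 76 NOD control mural cells, at least 75% in 34, between in 19 and without a value in 1. Within 40% to 60% lay 12 cells. In C57BL/6 PC, 129 of 229 cells were at or below 25% and 12 at or above 75%. In C57BL/6 vSMC, 256 of 271 cells were at or above 75% and 0 at or below 25%. The single name vSMC/PC thus covers cells over the range of both C57BL/6 types, though median depth was 606 UMIs in NOD control mural cells, 1017 in PC and 1548 in vSMC. Contractile-leaning cells (above 50%) numbered 6, 16 and 14 in libraries 1, 2-1 and 2-2, and pericyte-leaning cells 0, 13 and 22. The classes are ranges of a score, not types.

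**Figure D3:**
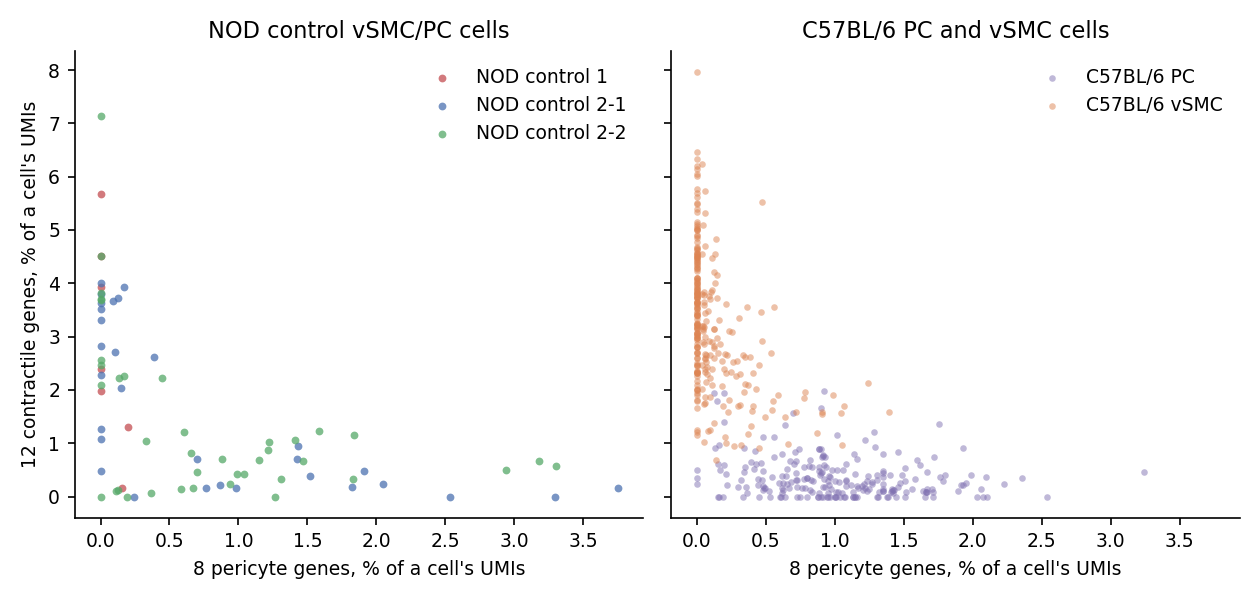
Each point is 1 cell, with the percentage of its UMIs in 8 pericyte genes (x axis) and in 12 contractile genes (y axis), for NOD control vSMC/PC cells by library (left) and C57BL/6 PC and vSMC cells (right). NOD control cells lie along both axes, as the 2 C57BL/6 types do together, and 6 of the 7 cells of library 1 have a contractile share of at least 75%.

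Genes that took no part in the placing followed it. Of 26 other genes with at least 20 UMIs in NOD control mural cells and a 4-fold difference between C57BL/6 PC and vSMC, 25 were higher on the same side in NOD control cells, 14 of 15 vSMC genes and 11 of 11 PC genes. The 36 contractile-leaning cells held 30295 UMIs and the 35 pericyte-leaning cells 20808, with median depths of 780 and 569. The genes named next were chosen after their values were seen. Map3k7cl had 37 UMIs in contractile-leaning cells and 2 in pericyte-leaning cells. Dstn, an actin depolymerising factor, had 46 UMIs in contractile-leaning cells and 1 in pericyte-leaning cells. Ifitm1, an interferon-induced membrane protein, had 1 UMI in contractile-leaning cells and 23 in pericyte-leaning cells, and Sept4, a septin, had 3 and 27. Fabp4, a fatty acid binding protein, was the exception, at 330 CPM in contractile-leaning cells and 336 CPM in pericyte-leaning cells. Levels in these classes are pooled over libraries and have no test.

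Pooled, NOD control mural cells lay between the 2 C57BL/6 types for most of these genes. All 8 short-list pericyte genes and 11 of 12 contractile ones had a NOD control level between those of PC and vSMC, and so did 21 of the 26 other genes. Rgs5 stood at 3811 CPM in NOD control mural cells, 5412 CPM in C57BL/6 PC and 569 CPM in C57BL/6 vSMC. Acta2 stood at 5837 CPM in NOD control mural cells, 1632 CPM in PC and 12608 CPM in vSMC. Lmod1 lay outside, at 644 CPM in NOD control mural cells, 108 CPM in PC and 493 CPM in vSMC. Nr2f2 was likewise above both, at 1565 CPM in NOD control mural cells, 577 CPM in PC and 272 CPM in vSMC, though library 1 held 1 Nr2f2 UMI.

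Mural cells were compared between NOD control and C57BL/6 in samples, with PC and vSMC of C57BL/6 summed. Fewer recovered cells and fewer cells in the tissue cannot be told apart. Mural cells made up 0.5% and 1.75% of annotated cells in NOD control 1 and 2, and 12.4%, 9.47% and 2.56% in C57BL/6 1, 3 and 4, so the groups did not overlap. The means were 1.12 ± 0.883% in NOD control (SD, n = 2) and 8.14 ± 5.05% in C57BL/6 (SD, n = 3), a log2 ratio of -2.84 (exact two-sided permutation test, p = 0.2). The log2 ratios of shares, here and below, are differences between group means of log2 values, not ratios of the means printed. With 2 against 3 samples the exact permutation test cannot give a p below 0.1. Per 100 endothelial cells, which leaves the leukocyte share out, NOD control 1 and 2 had 20 and 29.0 mural cells, and C57BL/6 1, 3 and 4 had 101, 105 and 40. The means were 24.5 ± 6.36 in NOD control (SD, n = 2) and 82.0 ± 36.4 in C57BL/6 (SD, n = 3), a log2 ratio of -1.64 (exact permutation test, p = 0.2). Neither difference passed the test.

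**Figure D4:**
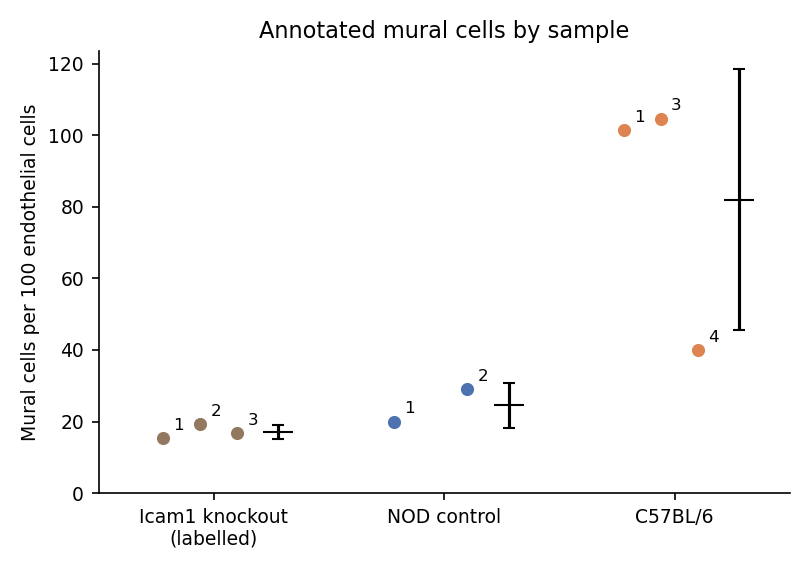
Annotated mural cells per 100 endothelial cells by sample, in Icam1 knockout, NOD control and C57BL/6, with the sample's number beside each point and mean ± SD in black. The Icam1 knockout samples sit between 15.4 and 19.2, NOD control at 20 and 29.0 and C57BL/6 between 40 and 105.

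Summed UMI counts of mural cells were tested between the same samples with edgeR's quasi-likelihood test and Benjamini-Hochberg adjustment over 1004 genes. The per-sample levels in the next sentences are TMM-scaled CPM. At an adjusted p under 0.05, 18 genes were called (1.79%), of which 8 were higher (0.797%) and 10 lower (0.996%) in NOD control. No pericyte gene (0 of 11 tested) and no contractile gene (0 of 16 tested) was among them, and at an unadjusted p under 0.05 there were 0 of either as well, against 72 of all genes. DESeq2 called 16 genes. The median log2 fold change was -0.06 over tested pericyte genes and -0.28 over contractile genes, beside -0.12 over all genes. SEs ran from 0.50 to 0.66 on the log2 scale for pericyte genes and from 0.46 to 1.21 for contractile genes, so that a missed threshold does not show equal levels.

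Rgs5 stood at 535 and 6418 CPM in NOD control 1 and 2 and at 2531, 3855 and 2451 CPM in C57BL/6 1, 3 and 4, and the groups overlapped (log2 fold change 0.39 ± 0.64, SE; edgeR adjusted p = 0.991). Acta2 stood at 7220 and 9079 CPM in NOD control 1 and 2 and at 13677, 12956 and 17050 CPM in C57BL/6, with no overlap (log2 fold change -0.82 ± 0.46, edgeR adjusted p = 0.813). Lmod1 stood at 1337 and 939 CPM in NOD control and at 466, 551 and 639 CPM in C57BL/6 (0.96 ± 0.48, edgeR adjusted p = 0.755). None of these passed the threshold.

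**Figure D5:**
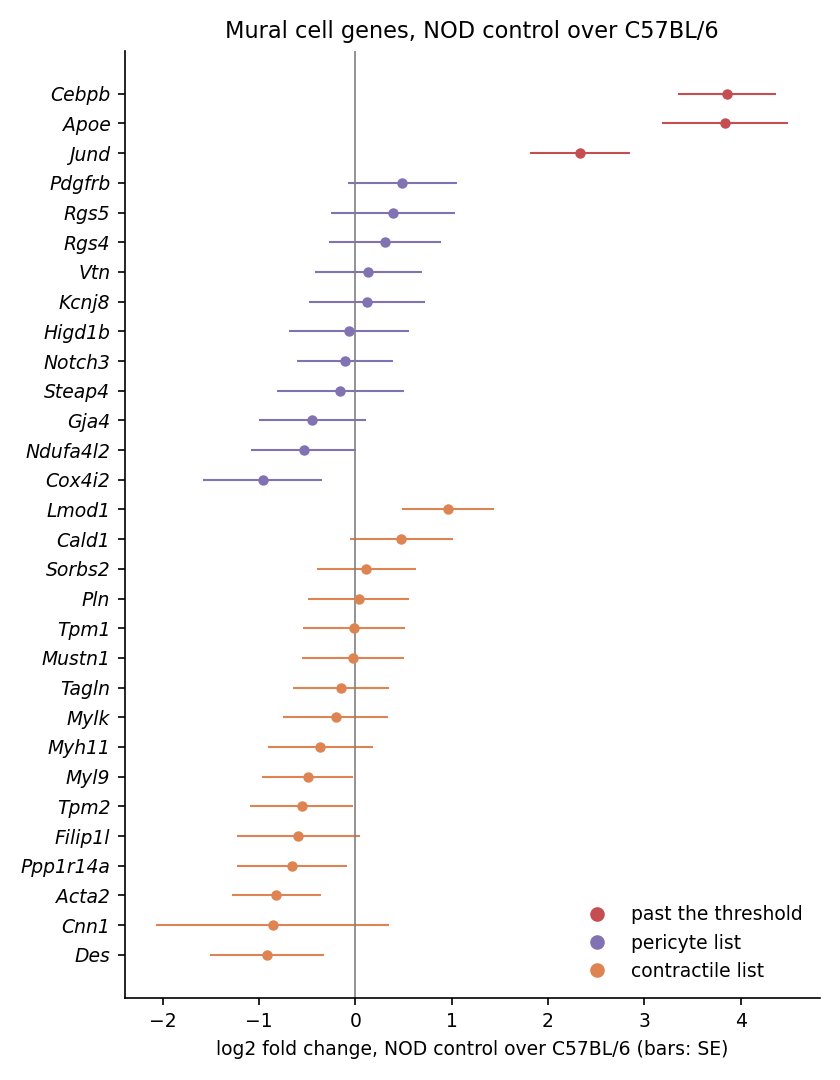
log2 fold change of NOD control over C57BL/6 in mural cells, with SE as bars, for Cebpb, Apoe and Jund and for the 11 pericyte and 16 contractile genes tested. The list members lie between -0.96 and 0.96, none past the threshold, and Cebpb, Apoe and Jund at 3.86, 3.84 and 2.33.

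Of the called genes, Cebpb, a transcription factor of inflammatory and stress responses (chromosome 2, 167688915 to 167690418, plus strand), stood at 1337 and 1941 CPM in NOD control 1 and 2 and at 171, 108 and 0 CPM in C57BL/6 1, 3 and 4. It rose by 3.86 ± 0.51 on the log2 scale (edgeR adjusted p = 3.3e-04). Apoe, the lipid carrier apolipoprotein E (chromosome 7, 19696109 to 19699188, minus strand), stood at 267 and 3632 CPM in NOD control and at 171, 197 and 0 CPM in C57BL/6 (3.84 ± 0.65, edgeR adjusted p = 0.00414). Jund, an AP-1 transcription factor (chromosome 8, 70698949 to 70700616, plus strand), stood at 802 and 2442 CPM in NOD control and at 264, 482 and 320 CPM in C57BL/6 (2.33 ± 0.52, edgeR adjusted p = 0.0264). Without NOD control 2 the arm is NOD control 1 alone, with 7 cells, assumed to vary like the C57BL/6 samples. The log2 fold change was then 2.78 for Cebpb (edgeR adjusted p = 0.283), 0.40 for Jund (0.873) and -0.024 for Apoe (0.998). Without the 3 cells rich in fibroblast transcripts, and C57BL/6 cells of the same kind, the 3 genes were still called, Apoe with 3.45 (edgeR adjusted p = 0.00389). Jund also missed the threshold without C57BL/6 3 (log2 fold change 2.91, edgeR adjusted p = 0.0793) or C57BL/6 4 (2.25, adjusted p = 0.117), with a change about as large. With no filter on low counts Jund missed it too, with a smaller log2 fold change of 1.76.

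The same contrast was run in EC, nmSC and fibro cells. Cebpb changed by 3.64 in nmSC and 2.51 in fibro cells on the log2 scale, Jund by 2.60 in EC, 2.01 in nmSC and 1.99 in fibro cells, and Apoe by 3.82 in nmSC and 2.85 in fibro cells (edgeR adjusted p between 3.8e-05 and 0.0127 for these), with 1.06 for Apoe in EC (edgeR adjusted p = 0.418). These come from the same samples, and the difference between types was not tested. Within NOD control mural cells, Cebpb had 58 UMIs in contractile-leaning cells and 9 in pericyte-leaning ones. Apoe itself was lower in NOD control mural cells than in nmSC cells, at 2154 CPM in mural cells and 11366 CPM in nmSC cells. The fibroblast genes Lum and Apod, named after their values were seen, were also called and higher in NOD control, in groups that overlapped. Without C57BL/6 4 both missed the threshold (edgeR adjusted p = 0.145), and without NOD control 2 likewise (0.568 and 0.774), where the fitted direction of both also turned to lower in NOD control. Lum and Apod are counted in the fibroblast list, which stood at 9445 CPM in NOD control mural cells and 3488 CPM in C57BL/6 mural cells. The part of fibroblast transcripts in the Apoe, Lum and Apod calls was not tested.

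Most of the remaining 13 calls were ribosomal protein genes or their copies. Genes whose symbol begins with Rpl or Rps and a number, copies such as Rpl9-ps6 included, numbered 79 among those tested. Of these 79, 8 were called, with a median log2 fold change of -0.47, beside 18 of all 1004 genes and -0.12. Of all 18 called genes, 8 shared at least 50% of their 50-base words with transcripts of other genes in the GENCODE annotation, so that counting could divide reads between copies and these calls are uncertain. Gm10260 had 62 UMIs in NOD control and 0 in C57BL/6, at least 248-fold higher with 3 counts over the group as floor, while Rps18, with which it shares 63.3% of its words, had 6 UMIs in NOD control and 1052 in C57BL/6. Summed over Rps18, Gm10260 and Gm11361, the level was 4018 and 1450 CPM in NOD control 1 and 2 and 2067, 1523 and 1686 CPM in C57BL/6 1, 3 and 4, and the groups overlapped. For Rpl9 with Rpl9-ps6 the sum was 1005 and 735 CPM in NOD control and 2001, 1195 and 953 CPM in C57BL/6, which overlapped as well. Rpl10 with Rpl10-ps3 also overlapped, at 753 and 537 CPM in NOD control and 2390, 1174 and 733 CPM in C57BL/6. Groups did not overlap for Rpl27 with Rpl27-ps3, at 0 and 417 CPM in NOD control and 1565, 795 and 1026 CPM in C57BL/6. Nor did they for Gm10076 with Rpl41, at 2260 and 4550 CPM in NOD control and 9161, 4728 and 5278 CPM in C57BL/6. Rps12 had 0 UMIs in NOD control and 289 in C57BL/6, at least 8.02-fold lower with the same floor. Rpl21 and Rpl10 had log2 fold changes of -4.37 and -3.91. Gm10076 and Sap18 had 1 UMI each in NOD control and 272 and 242 in C57BL/6. Their pooled ratios were 0.0442 (0.00111 to 0.248) and 0.0496 (0.00125 to 0.279), where intervals of pooled ratios cover counting error only. Gm11361 had 21 UMIs in NOD control and 1 in C57BL/6 (ratio 252, 40.6 to 10429), and Rpl9-ps6 rose by 4.36 on the log2 scale (edgeR adjusted p = 0.0297). Without NOD control 2 the edgeR adjusted p was 0.0691 for Rpl21, 0.283 for Rps12 and Rpl10, 0.301 for Gm10076 and 0.384 for Sap18. Without C57BL/6 3 it was 0.0616 for Rpl21, 0.0793 for Rpl10 and 0.257 for Gm11361, and without C57BL/6 4 it was 0.0568 for Rps12 and 0.0947 for Sap18. Rps12 also missed the threshold without the cells rich in fibroblast transcripts (edgeR adjusted p = 0.0662), as did Rpl10 (0.0615), Gm10076 (0.0784) and Sap18 (0.124) with no filter on low counts. The direction was kept in each of these. The sums of copies were chosen after the values were seen. In EC, fibro and nmSC cells the same contrast gave log2 fold changes of 9.01, 9.47 and 8.34 for Gm10260. They were -5.24, -5.03 and -4.57 for Rps12, and -3.07, -2.69 and -3.14 for Sap18. Rpl10, Rpl21 and Gm10076 also fell and Gm11361 rose in these types (edgeR adjusted p under 0.05 for all these). Rpl9-ps6 missed the threshold in fibro cells (2.83, edgeR adjusted p = 0.0681). These changes were thus not confined to mural cells. Their difference between types was not tested.

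Mural cells of the libraries labelled Icam1 knockout numbered 4, 5 and 5 and are given as values with no gene test. Per 100 endothelial cells there were 15.4, 19.2 and 16.7 in Icam1 knockout 1, 2 and 3 and 20 and 29.0 in NOD control 1 and 2. The means were 17.1 ± 1.96 in Icam1 knockout (SD, n = 3) and 24.5 ± 6.36 in NOD control (SD, n = 2), a log2 ratio of -0.50 (exact two-sided permutation test, p = 0.1, the smallest this design allows). Each knockout count rests on 26 to 30 endothelial cells. Rgs5 stood at 4307, 5262 and 4620 CPM in Icam1 knockout mural cells, and at 502, 3846 and 4211 CPM in NOD control 1, 2-1 and 2-2. Tagln stood at 410, 2736 and 231 CPM in Icam1 knockout, and at 6529, 4741 and 2999 CPM in NOD control, groups that did not overlap though the interval of Icam1 knockout 2 overlapped that of each NOD control library. Contractile genes summed to 12969 CPM in Icam1 knockout and 28023 CPM in NOD control, and pericyte genes to 10676 CPM in Icam1 knockout and 10016 CPM in NOD control. The contractile share of the short-list UMIs was at most 25% in 7 of 14 knockout cells.

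B2m stood at 1025, 3578 and 4620 CPM in Icam1 knockout mural cells and at 753, 211 and 447 CPM in NOD control 1, 2-1 and 2-2. The groups did not overlap, although the intervals of Icam1 knockout 1 (333 to 2393 CPM) and NOD control 1 (155 to 2202 CPM) did. H2-D1, a class I heavy chain, stood at 410, 1894 and 1617 CPM in Icam1 knockout and at 251, 211 and 383 CPM in NOD control. T and NK cell genes moved with them: their list summed to 1846, 3578 and 5082 CPM in Icam1 knockout 1, 2 and 3, against 0, 52.7 and 191 CPM in NOD control 1, 2-1 and 2-2. Their part in these levels was not tested.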

How the data were processed

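For each of the 9 mouse libraries used, the deposited matrix holds counts of UMIs, and a further deposited table names the type of each cell. Per the submitters' processing notes, Cell Ranger 3.0.2 and the build mm10 were used. How the authors clustered cells or treated doublets and ambient transcripts is not given in the sources used here. No doublet caller was run. Cells were taken by deposited name and library. CPM were computed here from these counts, pooled over cells. Shares above 0 carry Clopper-Pearson and levels exact Poisson intervals (95%), which cover counting error only. Ratios of pooled counts carry exact conditional binomial intervals (95%), which likewise leave out the spread between samples. A count of 0 was read as up to 3 counts, except in levels of single libraries, where the exact Poisson upper limit is given. Shares of cells were also computed after thinning each cell to 400 UMIs.

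For gene tests, counts of mural cells were summed per sample (at least 5 cells) and fitted with edgeR 4.0.16 in R 4.3.3: TMM, filterByExpr, quasi-likelihood, no covariates, Benjamini-Hochberg adjustment over 1004 genes, threshold 0.05. The test was checked on simulated data. DESeq2 1.42.0 was an alternative. Cell shares were compared with exact permutation tests (scipy 1.17.1, Python 3.11.15) on log2 values. Named genes are the 4 markers, up to 6 members of each list with the most UMIs, the 12 largest ratios, the 6 largest separated changes in each direction above a mean log2 CPM of 5 and the 5 genes most like Rgs5; others were named after their values were seen, and 1 gene that the rule names is not reported here. The members and gene lists were chosen with earlier results of these data known. Of the listed genes, Gucy1a3, Gucy1b3 and Ccl19 were not matched by symbol. Of the value columns, 0 per sample were left unused.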

Additional observations from a re-analysis of the deposited data

How the results depend on the processing

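The count of 61 genes past 4-fold in mural cells was 61 as a mean of the 3 libraries and 63 without the cells rich in fibroblast transcripts, but 32 with each cell thinned to 400 UMIs and 124 with a minimum of 10 UMIs. Leaving out libraries gave 27 to 59, lowest without library 2-2 and 35 without 2-1; fewer UMIs then leave fewer genes with 20. The 18 genes called between strains were 19 with RLE size factors, 23 with no filter on low counts (19 higher and 4 lower), 16 with DESeq2, 17 with libraries 2-1 and 2-2 apart, 30 against C57BL/6 PC alone and 38 with a minimum of 10 mural cells, which leaves out NOD control 1. Without single samples the count ran from 3 to 38, with 3 without C57BL/6 3 or without NOD control 2. Similar counts did not hold the same genes throughout. All 18 were called again with RLE size factors, 12 of the 18 with DESeq2 and 8 with no filter on low counts. With libraries 2-1 and 2-2 apart 10 of the 18 were called, among 400 genes tested. Against C57BL/6 PC alone 14 of the 18 were called, among 748 tested. The log2 fold change of Apoe ran from -0.024 without NOD control 2 to 4.36 without NOD control 1. Without C57BL/6 1 or 3 the filter on low counts left Apoe out.

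The log2 ratios of cell shares kept their sign under every alternative run. They ran without single samples from -3.74 to -1.94 per annotated cell and from -2.10 to -1.37 per 100 endothelial cells for NOD control over C57BL/6, and from -0.77 to -0.23 for Icam1 knockout over NOD control. With the replicate number as a block, which Icam1 knockout and NOD control share for 2 pairs, the last ratio was -0.49 (exact permutation p = 0.5). The labels do not say that a number marks shared animals or days. NOD control and C57BL/6 share number 1 alone, so no paired fit was possible there. Depth limits most statements: 54312 UMIs leave 427 genes with 20 UMIs.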
